A study of Mus musculus with 4 samples.

Results

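The genes described here are those for the cytosolic translation initiation factors (Eif genes) and elongation factors (Eef genes) of mouse neural progenitor cells. They were taken by symbol, as rows of the deposited table of expressed genes whose symbol starts with Eif1 to Eif6 or with Eef1 or Eef2, without the Eif2ak kinase genes. This gave 52 genes, 45 of initiation and 7 of elongation, of 11160 features in the table. All 52 passed the filter on low values. The lowest read count of any of them in any library was 67, for Eif6. A row that holds Eif4ebp3 together with Ankhd1 under 1 joint symbol does not start with a factor name and is not among them.

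The 4 RNA-seq libraries comprise 2 of wild-type (WT) cells and 2 labelled Mcph1 KO, a full knockout of the gene for microcephalin, which restrains chromosome condensation. The cultures came from the dorsal telencephalon of C57BL/6J embryos at embryonic day 12.5 and were grown as neurospheres, floating balls of dividing progenitors, with basic fibroblast growth factor and insulin. Each library is a pool of cultures of 1 genotype, so p-values measure the spread between pools. The comparison asks which genes differ in expression when Mcph1 is inactivated. Whole reads recovered from the deposited values came to between 5975471 (KO 2) and 22347416 (WT 2) per library. Levels are in scaled CPM, reads per 1000000 after all 4 libraries were brought to a common scale, and fold changes are KO-labelled minus WT on the log2 scale. Mcph1 itself stood at 21.1 and 21.6 CPM in WT, against 19.5 and 20.3 CPM in the second group. The deleted part of the gene is not named in the labels, so a whole-gene count does not check the genotype, and the second group is called KO-labelled throughout.

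The progenitor markers were all present (10 of 10). Their summed level was 12820 and 13141 CPM in WT, 6216 CPM in KO 1 and 8916 CPM in KO 2. Most of that sum came from Fabp7 (5307, 5387, 2020 and 2263 CPM in WT 1, WT 2, KO 1 and KO 2) and Vim (4757, 4911, 2208 and 4211 CPM). Log2 fold changes were below 0 for 6 markers, Sox2 and Nes included. They were above 0 for the other 4, Pax6, Lhx2, Slc1a3 and Emx2 (0.23 to 0.40). DESeq2 gave no adjusted p for 4 of the 10 markers, and called 1 of the others, Fabp7, lower (adjusted p = 0.00466). Of all features with a DESeq2 adjusted p, 0.157% were called lower. Of 16 neuron markers, 14 were in the table, with sums of 1079 and 1213 CPM in WT, 2299 CPM in KO 1 and 1012 CPM in KO 2. Map2 made up much of these sums (532, 612, 683 and 605 CPM in WT 1, WT 2, KO 1 and KO 2). Log2 fold changes were above 0 for 13 of the 14, with a median of 0.61. Relative to the WT mean, the median of the 14 on the log2 scale was 1.48 in KO 1 and -0.20 in KO 2. All 4 astrocyte markers summed to 1511, 645, 538 and 987 CPM in WT 1, WT 2, KO 1 and KO 2, and all 5 markers of the oligodendrocyte lineage to 814, 745, 568 and 746 CPM. The table lists none of the 14 markers of microglia, endothelium, mesenchyme and red blood cells. The part of these shifts in the results was not tested. In bulk libraries, fewer cells of a type and less RNA per cell cannot be told apart.

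Translation starts when eIF2 brings the initiator tRNA to the small ribosomal subunit, which is held by eIF3 and recruited to capped mRNA by eIF4F, the complex of the cap-binding eIF4E, the helicase eIF4A and the scaffold eIF4G. eIF1 and eIF1A control the choice of the start codon, eIF5 and eIF5B trigger the joining of the large subunit, and eIF2B reloads eIF2 with GTP. In elongation, eEF1A delivers each aminoacyl-tRNA, the eEF1B subunits reload eEF1A, and eEF2 moves the ribosome along. Many of these mRNAs carry a pyrimidine-rich 5′ end through which mTORC1 controls their translation.

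None of the 52 genes passed the test. Adjusted p-values ran from 0.655 to 0.994 by limma, and the edgeR quasi-likelihood test also called 0 of them. DESeq2 called 0 of the 45 for which it gave an adjusted p, and gave none for the other 7. By limma 0% of the 10976 features tested were called in either direction. Of the 5102 features with a DESeq2 adjusted p, 0.157% were called lower and 0.0980% higher, and its smallest adjusted p among the factors was 0.0973, for Eif2s3x. At an unadjusted p under 0.05, limma placed 7 factors lower (13.5%, against 4.00% of all features) and 1 higher (1.92%, against 3.58%). The edgeR test placed 5 lower (9.62%, against 3.95%) and 1 higher (1.92%, against 3.96%) at that limit. The limma estimate was below 0 for 42 of the 52 genes (80.8%, against 48.6%) and above 0 for 10 (19.2%, against 51.4%). Both KO-labelled libraries lay below both WT libraries for 24 of them (46.2%, against 20.0%) and above both for 6 (11.5%, against 21.1%).

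The median log2 fold change was -0.17 over the 52 factors, -0.15 over initiation and -0.37 over elongation factors, beside 0.012 over all features tested. Relative to the WT mean, the median of the 52 genes was -0.066 in WT 1, 0.066 in WT 2, -0.27 in KO 1 and -0.19 in KO 2. Both KO-labelled medians were thus below both WT medians, and the WT libraries also differed from each other. Without WT 1 the median over the 52 genes was -0.28, and without KO 2 it was also -0.28. For initiation factors it was -0.27 without WT 1, -0.094 without WT 2 and -0.26 without KO 2. The 52 genes took 2.14% and 2.301% of the recovered reads in WT 1 and WT 2, and 1.79% and 1.82% in KO 1 and KO 2. Most of their summed level came from the 7 elongation genes, at 12633 and 14011 CPM in WT, 9164 CPM in KO 1 and 11223.5 CPM in KO 2. Eef1a1 alone held 7378, 8625, 5425 and 6990 CPM in WT 1, WT 2, KO 1 and KO 2. The 45 initiation genes summed to 8471 and 9501 CPM in WT, 7506.5 CPM in KO 1 and 8090 CPM in KO 2.

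**Figure D1:**
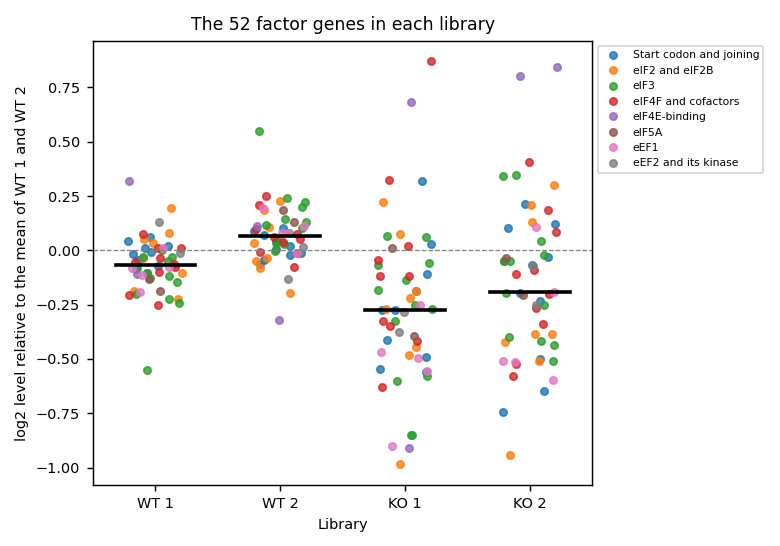
Level of each of the 52 factor genes (points, coloured by role) in each library, as log2 relative to the mean of WT 1 and WT 2 (vertical axis), with the median as a black bar. The medians are -0.066, 0.066, -0.27 and -0.19, and single genes spread around them in both KO-labelled libraries. The WT points of a gene mirror each other because their mean is the baseline. The spread of WT points therefore cannot be compared with that of KO-labelled points.

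**Figure D2:**
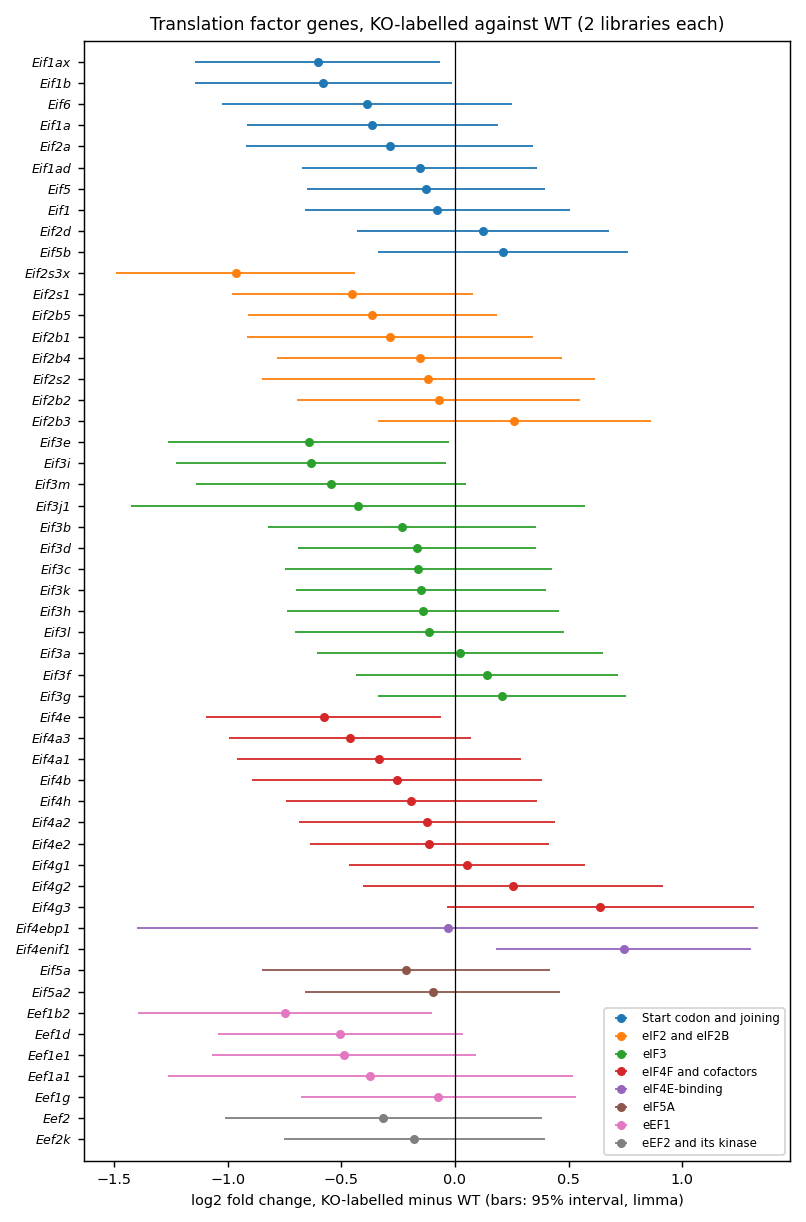
Log2 fold change (KO-labelled minus WT) of the 52 genes by role, with points for the limma estimate and bars for its 95% interval, from 2 libraries a group. Of the 52 estimates 42 lie below 0, and the intervals of 8 genes, Eif4enif1 to the right and 7 others to the left, leave out 0 before adjustment for the number of features tested.

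The eIF2 complex held the factor with the smallest p. Eif2s3x (GSMG0042682), the X-linked gene for the gamma subunit that binds GTP and the initiator tRNA, stood at 364 and 339 CPM in WT, against 177 and 182 CPM in KO-labelled cells. The KO-labelled values were close together, and the groups were far from overlapping. This gave a log2 fold change of -0.96 (SE 0.22, with a 95% interval from -1.49 to -0.44, unadjusted p = 0.00385 and adjusted p = 0.655 by limma), or 0.512-fold. Eif2s1, the alpha subunit whose phosphorylation by stress kinases slows initiation, stood at 118 and 136 CPM in WT, against 90.8 and 94.7 CPM in KO-labelled cells (-0.45, SE 0.22). Its groups did not overlap either. Eif2s2, the beta subunit, stood at 278 and 212 CPM in WT, 179 CPM in KO 1 and 281 CPM in KO 2, and its groups overlapped (-0.12, SE 0.30).

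Reads of Eif2s3x made up 47.8% (95% exact binomial interval 46.5 to 49.2) and 49.3% (48.5 to 50.1) of the reads of the 3 eIF2 subunit genes in WT 1 and WT 2. They made up 39.7% (38.4 to 41.0) in KO 1 and 32.7% (31.0 to 34.3) in KO 2, so this share also differed between the 2 KO-labelled libraries. Such intervals cover counting error only. The level of Eif2s3x itself was close in KO 1 and KO 2 (177 and 182 CPM), whereas that of Eif2s2 was 179 and 281 CPM. Of the stretches of 75 bases, the read length, in the longest Eif2s3x transcript of GENCODE M21, 35.7% also occur in transcripts of other genes, mainly Gm2223, so its count is uncertain. For Eif2s2 this share was 22.4% and for Eif2s1 3.24%.

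Eif2s3x escapes X inactivation in mice, and the X-linked genes measured (327 tested) had a median log2 fold change of -0.065. Xist, the RNA that silences the inactive X, stood at 209 and 247 CPM in WT, 156 CPM in KO 1 and 247 CPM in KO 2. No Y-linked gene of the list used, which holds Eif2s3y, the Y-linked copy of the gamma subunit, is in the table analysed here. Of 3 other genes known to escape, looked at after the Eif2s3x value was seen, Ddx3x had a log2 fold change of -0.58 (SE 0.26), Kdm6a -0.14 (SE 0.24) and Kdm5c 0.21 (SE 0.26). The part of the sex of the pooled embryos in the Eif2s3x values was not tested.

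The sequence upstream of the annotated start is shown for 4 genes. They are those with a single promoter entry among the factors lower at an unadjusted p under 0.05 by limma. Their estimates share a sign because of that choice. All 4 sequences are 150 bases long and end at the base before the start of the RefSeq transcript (GRCm38.p6). Any match to the motifs searched is in capitals.
Eif2s3x (chrX:94212652-94212801, minus strand): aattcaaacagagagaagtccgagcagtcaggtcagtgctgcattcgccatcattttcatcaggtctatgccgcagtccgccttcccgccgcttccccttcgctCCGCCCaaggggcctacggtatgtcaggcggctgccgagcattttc
Eif1ax (chrX:159372028-159372177, plus strand): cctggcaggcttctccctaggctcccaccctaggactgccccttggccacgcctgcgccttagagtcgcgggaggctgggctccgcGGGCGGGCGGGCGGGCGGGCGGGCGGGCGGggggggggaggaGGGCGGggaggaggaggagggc
Eif1b (chr9:120492456-120492605, plus strand): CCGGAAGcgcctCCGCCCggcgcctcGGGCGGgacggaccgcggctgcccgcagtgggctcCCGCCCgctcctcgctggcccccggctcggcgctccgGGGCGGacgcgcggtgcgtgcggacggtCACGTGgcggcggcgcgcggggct
Eef1b2 (chr1:63176681-63176830, plus strand): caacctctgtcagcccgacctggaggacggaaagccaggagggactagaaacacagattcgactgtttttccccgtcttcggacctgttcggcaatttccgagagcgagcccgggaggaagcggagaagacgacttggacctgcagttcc

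The motifs were the GC box (GGGCGG), the ETS core (CCGGAAG), the E-box (CACGTG), the cAMP response element (TGACGTCA) and the TATA box (TATAAA), on both strands. Copies of the GC box overlap each other in Eif1ax. Eef1b2 holds none of the 5 in these 150 bases, Eif2s3x holds only a GC box, and Eif1b holds a GC box, an ETS core and an E-box. In the full 250 bases upstream, the GC box was found in 38 of 56 promoter entries of 42 factor genes (67.9%), against 59.3% of the entries of genes in the table and 32.7% of all entries. The ETS core was found in 19.6%, against 14.4% and 6.91%, the E-box in 23.2%, against 8.49% and 6.02%, the TATA box in 7.14%, against 6.02% and 12.4%, and the cAMP response element in 0, against 2.80% and 1.55%. Several entries of 1 gene can share bases. A match describes the letters only.

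Transcripts of the pyrimidine-rich class start with a C and an unbroken run of C and T. An annotated start with a C and at least 4 such bases after it was found in 2 of the 56 entries (3.57%, against 2.51% of all entries), those of Eif2s3x and Eif3f. RefSeq starts are not mapped starts in these cells. The first 20 bases are shown for both, with the run in capitals.
Eif2s3x (chrX:94212632-94212651, minus strand): CTTTTCTCTCCgagcaagat
Eif3f (chr7:108934415-108934434, plus strand): CTCTCTTTCTCggcaagatg
These 2 genes had estimates of opposite sign. Eif3f, a subunit of eIF3, stood at 110 and 109 CPM in WT, 105 CPM in KO 1 and 139 CPM in KO 2 (0.14, SE 0.24), and its groups overlapped.

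The 5 subunits of eIF2B, the exchange factor whose partial loss causes vanishing white matter disease in people, had a median log2 fold change of -0.15, with 4 estimates below 0 and 1 above. Eif2b5, the catalytic epsilon subunit, stood at 154 and 162 CPM in WT, against 136 and 111 CPM in KO-labelled cells (-0.36, SE 0.23). Its groups did not overlap, with KO 2 the lowest. The exception in sign was Eif2b3, the gamma subunit, at 27.2 and 35.3 CPM in WT and 36.1 and 38.2 CPM in KO-labelled cells (0.26, SE 0.25). Eif2b1, Eif2b2 and Eif2b4 lay between -0.29 and -0.071.

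Among the 10 factors that act on the start codon and on subunit joining, 8 estimates were below 0 (80%, against 48.6% of all features) and 6 genes had both KO-labelled values under both WT values (60%, against 20.0%). The list median was -0.22. Eif1ax, the X-linked gene for eIF1A, stood at 353 and 389 CPM in WT, against 251 and 236 CPM in KO-labelled cells (-0.60, SE 0.22). Its autosomal copy Eif1a stood at 103 and 117 CPM in WT, against 77.9 and 93.3 CPM (-0.36, SE 0.23). Neither gene's groups overlapped. Eif1b, a paralog of Eif1, stood at 120 and 110 CPM in WT, against 86.4 and 68.6 CPM in KO-labelled cells (-0.58, SE 0.23), without overlap. Eif1, the start codon fidelity factor, stood at 66.3 and 62.4 CPM in WT, 53.2 CPM in KO 1 and 69.9 CPM in KO 2 (-0.077, SE 0.24), so KO 2 was the highest and KO 1 the lowest library.

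The balance within both paralog pairs differed most in KO 2. Eif1b gave 64.4% (95% exact binomial interval 61.8 to 67.0) of the Eif1 and Eif1b reads in WT 1, 63.8% in WT 2, 61.9% in KO 1 and 49.6% (46.0 to 53.1) in KO 2. Eif1ax gave 77.4%, 76.9% and 76.3% of the Eif1a and Eif1ax reads in WT 1, WT 2 and KO 1, and 71.7% (69.6 to 73.7) in KO 2. In both pairs the KO 1 share lay within 3 percentage points of the WT shares. Eif1 shares 25.6% of its 75-base stretches with other genes, Eif1a 1.68%, and Eif1b and Eif1ax none, in GENCODE M21.

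The other factors of this step had estimates between -0.39 and 0.21. Eif6, which keeps large ribosomal subunits from joining too early, had a log2 fold change of -0.39 (SE 0.26), with both KO-labelled values under both WT values. Eif2a, an alternative carrier of initiator tRNA, lay at -0.29, Eif1ad, an eIF1A-domain protein, at -0.15, and Eif5, the GTPase-activating factor of eIF2, at -0.13. The 2 estimates above 0 were those of Eif5b, the subunit-joining GTPase (0.21, SE 0.23), and Eif2d, a factor of reinitiation and recycling (0.12, SE 0.23). In both of these the KO-labelled libraries lay above both WT libraries (20% of this list, against 21.1% of all features). For Eif2d the margin was small, at 33.1 CPM in KO 1 against 32.9 CPM in WT 1.

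**Figure D3:**
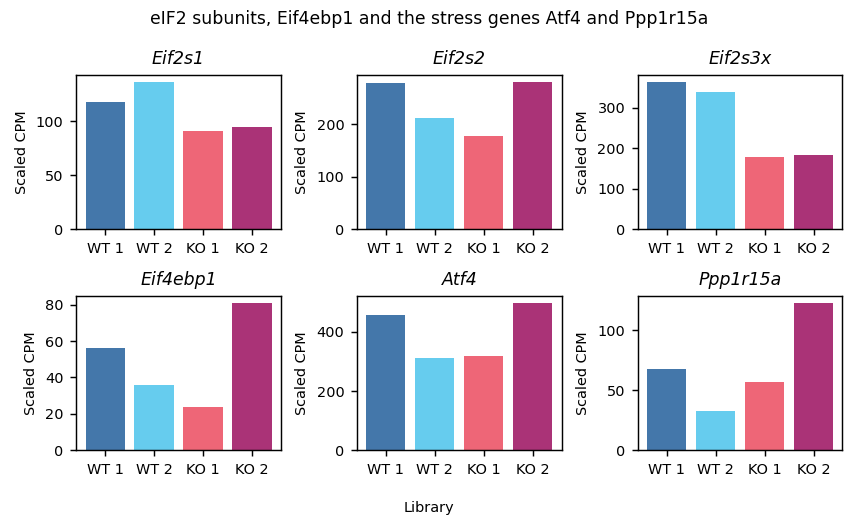
Bars give the scaled CPM of 6 genes in each library, from 0 on a linear axis that differs between panels. The upper row shows the eIF2 subunit genes, with Eif2s3x at 364 and 339 CPM in WT and 177 and 182 CPM in the KO-labelled libraries. The lower row shows Eif4ebp1, Atf4 and Ppp1r15a, all highest in KO 2.

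Of the 13 eIF3 subunit genes, 10 had estimates below 0, with a list median of -0.16, and 4 had both KO-labelled values under both WT values (30.8%, against 20.0% of all features). Eif3e, a subunit of the core of the complex in mammals, stood at 572 and 598 CPM in WT, against 324 and 432 CPM in KO-labelled cells (-0.64, SE 0.26). Eif3i, a subunit of the module with Eif3b and Eif3g, stood at 193 and 206 CPM in WT, against 110.5 and 149 CPM (-0.63, SE 0.25). Both genes were lowest in KO 1, and without it Eif3i lay at -0.42. Eif3m, another core subunit, stood at 130 and 178 CPM in WT, against 102 and 107 CPM in KO-labelled cells (-0.54, SE 0.25), with no overlap but with WT 1 well below WT 2, and the Eif3m estimate was -0.32 without WT 2. Eif3c, a scaffold subunit, stood at 475 and 550 CPM in WT, against 423 and 494 CPM (-0.16, SE 0.24), and its groups overlapped.

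Partners in the same eIF3 module did not share an estimate. Eif3g, an RNA-binding partner of Eif3i, stood at 133 and 139 CPM in WT, against 143 and 173 CPM in KO-labelled cells (0.21, SE 0.23), and Eif3b, the scaffold of that module, lay at -0.23 (SE 0.24). The difference between these estimates was not tested. Eif3a, the largest subunit, lay at 0.021 (SE 0.26), and Eif3d, Eif3h, Eif3k and Eif3l lay between -0.17 and -0.11. Eif3j1, a loosely bound subunit with the lowest level, lay at -0.43 (SE 0.41), at 10.8 CPM in WT 1 and 23.3 CPM in WT 2. It shares 37.7% of its 75-base stretches with its copy Eif3j2.

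Levels between genes were compared per kilobase of the longest GENCODE M21 transcript. On that scale the eIF3 genes other than Eif3j1 ran in WT from a mean of 43.5 CPM per kilobase for Eif3f to 389 for Eif3e. In the KO-labelled libraries Eif3e stood at 251 CPM per kilobase and Eif3f at 48.4. The order of the 13 subunits by CPM was most alike between the WT libraries (Spearman's rho 0.962) and between the KO-labelled libraries (0.951), and was 0.824 to 0.945 across groups. These rho values are descriptions over 13 genes of the same libraries.

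**Figure D4:**
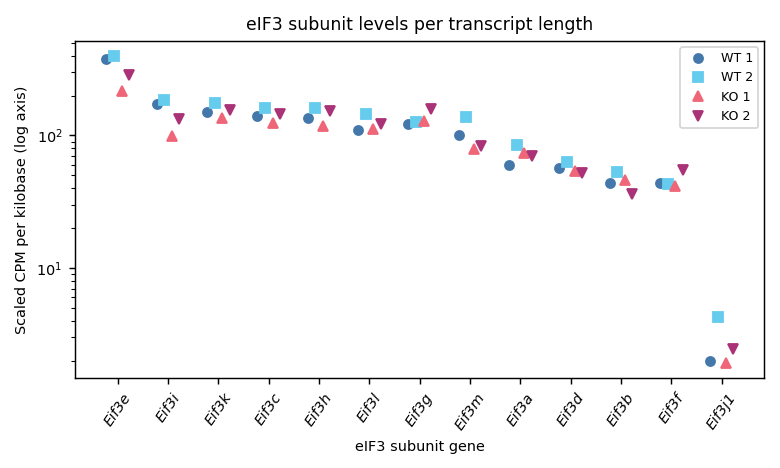
Scaled CPM per kilobase (log axis) of the 13 eIF3 subunit genes in each library, ordered by the WT mean. For Eif3e and Eif3i both KO-labelled points lie below both WT points, whereas for Eif3g they lie above them.

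The cap-binding protein gene Eif4e stood at 148 and 156 CPM in WT, against 98.3 and 106 CPM in KO-labelled cells, with little spread in either group (-0.58, SE 0.21). It shares 3.84% of its 75-base stretches with other genes. Its relative Eif4e2, which binds caps without eIF4G and represses translation, stood at 62.3 and 69.3 CPM in WT, against 60.6 and 61.0 CPM (-0.11, SE 0.22). Both genes had KO-labelled values under both WT values, by very different margins.

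The eIF4G scaffold genes all had estimates above 0 although Eif4g1 lay at -0.0023 without WT 1. Unscaled values, which shift the median of all features to -1.25, put all 3 below 0 but above that median. Eif4g3, a paralog of Eif4g1, stood at 13.7 and 13.6 CPM in WT, 25.1 CPM in KO 1 and 18.1 CPM in KO 2 (0.64, SE 0.28), and both KO-labelled values lay above WT. Its estimate was 0.41 without KO 1. Eif4g2, which lacks the eIF4E-binding part and serves cap-independent initiation, stood at 715 and 951 CPM in WT, against 1034 and 937 CPM (0.26, SE 0.27), with overlap, and its estimate was 0.049 without WT 1 and 0.46 without WT 2. Eif4g1, the main scaffold of eIF4F, stood at 163 and 176 CPM in WT, against 172 and 179 CPM (0.051, SE 0.22), also with overlap. After removal of the length and GC trend, the Eif4g1 estimate was -0.21. Eif4g3 gave 1.54% and 1.19% of the reads of the 3 genes in WT 1 and WT 2, 2.04% (95% exact binomial interval 1.81 to 2.28) in KO 1 and 1.60% (1.30 to 1.94) in KO 2. The interval of WT 1 (1.25 to 1.87) overlapped those of both KO-labelled libraries.

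Of the helicase genes, Eif4a1 stood at 277 and 391 CPM in WT, against 263 and 260 CPM in KO-labelled cells (-0.33, SE 0.26). Its estimate was -0.58 without WT 1 and -0.084 without WT 2. Eif4a2, the form more common in neurons, stood at 471 and 424 CPM in WT, against 434 and 388 CPM (-0.12, SE 0.23). WT 2 was the library that stood apart: Eif4a1 gave 48.0% (47.3 to 48.7) of the reads of the pair there, against 37.0% in WT 1, 37.7% in KO 1 and 40.1% in KO 2. Eif4a1 shares 62.9% of its 75-base stretches with other genes, so this balance is uncertain. Eif4a3, the helicase of the exon junction complex on spliced mRNA, stood at 129 and 126 CPM in WT, against 100.01 and 85.3 CPM in KO-labelled cells (-0.46, SE 0.22), without overlap. Of the helicase cofactors, Eif4b stood at 987 and 1076 CPM in WT, against 771 and 968 CPM (-0.26, SE 0.26), and Eif4h lay at -0.19 (SE 0.23).

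Eif4enif1, the eIF4E transporter that carries eIF4E into the nucleus and silences bound mRNAs in P-bodies, was the 1 factor higher at an unadjusted p under 0.05. It stood at 26.5 and 30.9 CPM in WT, against 46.0 and 49.9 CPM in KO-labelled cells (0.74, SE 0.23, 95% interval 0.18 to 1.30, unadjusted p = 0.0175 and adjusted p = 0.655 by limma). The groups were well apart, at 1.67-fold. This gene and Eif4e thus had estimates of opposite sign, and that difference was not tested.

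Eif4ebp1, the mTORC1 target that blocks eIF4E when unphosphorylated, differed more between KO 1 and KO 2 than between the group means. It stood at 56.2 CPM in WT 1, 36.1 CPM in WT 2, 24.0 CPM in KO 1 and 81.1 CPM in KO 2. Both extremes were KO-labelled libraries. The estimate was -0.032 (SE 0.57), although the KO-labelled mean of CPM was the higher one, and it was 0.85 without KO 1. Atf4, the stress-response transcription factor known to induce Eif4ebp1, stood at 456, 313, 317 and 498 CPM in the same order of libraries. Ppp1r15a, a regulatory subunit of the phosphatase of eIF2 alpha that ATF4 also induces, stood at 67.6, 32.7, 57.0 and 123 CPM. KO 2 was thus the highest and WT 1 the next for all 3 genes. Atf4 was chosen for this after its values were seen. Only Eif4ebp1 and Eif2s2 differed by more than 1.5-fold between KO 1 and KO 2 among the 52 factors, and only Eif4ebp1 and Eif3j1 did so between WT 1 and WT 2.

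Eif5a, the factor with the modified amino acid hypusine that helps ribosomes past difficult sequences, stood at 313 and 405 CPM in WT, against 271 and 348 CPM in KO-labelled cells (-0.21, SE 0.26). Its paralog Eif5a2 stood at 67.9 and 81.4 CPM in WT, against 74.9 and 64.3 CPM (-0.099, SE 0.23). Both pairs of groups overlapped. The Eif5a estimate was -0.40 without WT 1, -0.031 without WT 2, -0.036 without KO 1 and -0.40 without KO 2. Eif5a gave 82.2% and 83.3% of the reads of the pair in WT 1 and WT 2, and 78.4% (77.1 to 79.6) in KO 1 against 84.4% (82.8 to 85.8) in KO 2, so the KO-labelled libraries lay on opposite sides of WT.

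All 7 elongation factor genes had estimates below 0. Eef1b2, the alpha-type exchange subunit that reloads eEF1A with GTP, stood at 1568 and 1546 CPM in WT, against 834 and 1030 CPM in KO-labelled cells. WT varied little, KO 1 was lowest, and the groups did not overlap (-0.75, SE 0.27, 95% interval -1.39 to -0.10, unadjusted p = 0.0296 and adjusted p = 0.655 by limma). After removal of the length and GC trend, its estimate was -0.56. Eef1d, the delta exchange subunit, stood at 351 and 392 CPM in WT, against 263 and 260 CPM (-0.50, SE 0.22). Eef1g, the gamma subunit that anchors the complex, stood apart from both: it lay at 410 and 459 CPM in WT, against 364 and 467 CPM (-0.073, SE 0.25), with overlap. Eef1g shares 56.5% of its 75-base stretches with other genes, against 2.95% for Eef1b2 and 2.85% for Eef1d.

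Eef1e1, an eEF1-related scaffold protein of the multi-tRNA synthetase complex, stood at 61.4 and 80.2 CPM in WT, against 50.6 and 49.2 CPM in KO-labelled cells (-0.49, SE 0.24). Eef1a1, which encodes eEF1A itself, stood at 7378 and 8625 CPM in WT, 5425 CPM in KO 1 and 6990 CPM in KO 2 (-0.37, SE 0.37). Both genes had all KO-labelled values below WT, but for Eef1a1 the gap between KO 2 and WT 1 was smaller than that between the libraries of either group. Eef1a1 has many processed copies and shares 41.7% of its 75-base stretches with 14 other genes. Eef2, the translocation factor, stood at 2814 and 2866 CPM in WT, against 2188 and 2383 CPM (-0.31, SE 0.29), without overlap. Eef2k, the kinase that switches eEF2 off, stood at 50.9 and 42.5 CPM in WT, against 38.2 and 44.3 CPM (-0.18, SE 0.24), with overlap. Eef1a2, the form of eEF1A of mature neurons and muscle, is not among the rows analysed here.

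Per kilobase of transcript, Eef1a1 had the highest mean WT level of the 52 genes, at 4460 CPM per kilobase. It was followed by Eef2 at 919, Eef1b2 at 803 and Eif3e at 389, and in the KO-labelled libraries these 4 genes stood at 3460, 740, 481 and 251.

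The estimates varied with transcript length. Over the 52 genes, which have a median length of 2555 bases, the log2 fold change and length gave a Spearman's rho of 0.267, and over 9390 features with a length it was 0.287, as descriptions across genes that are not independent. The 19 factors under 2000 bases had a median of -0.21, the 22 factors of 2000 to 4000 bases one of -0.21, and the 11 longer ones one of -0.099. For all features these medians were -0.16, -0.010 and 0.11. After removal of the length and GC trend, the median over the 52 genes was -0.17, as it was without that step. Of the 29 genes named by the rule, 13 estimates differed by over 1.5 times after it. Eif3e went to -0.31, Eif3m to -0.25, Eif1a to -0.17, Eif4a1 to -0.17, Eef1a1 to -0.20 and Eef2k to -0.41. Eif4g3 went to 0.35 and Eif4g2 to 0.14, so the higher scaffold estimates were also smaller on that scale.

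**Figure D5:**
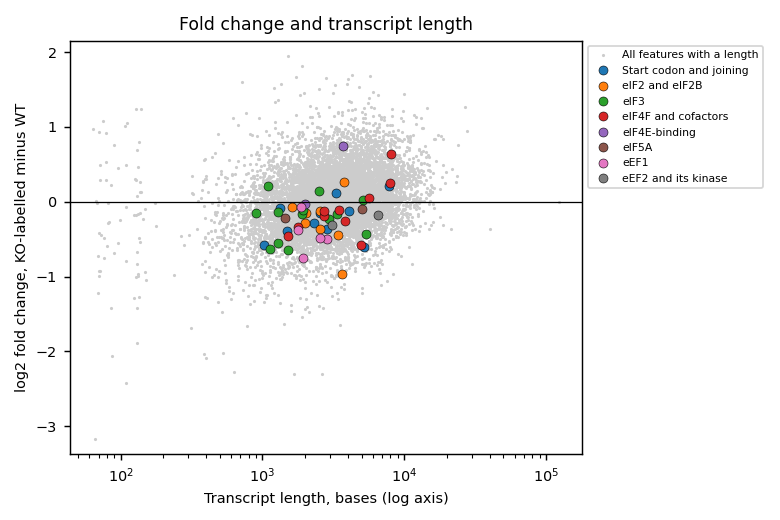
Log2 fold change (KO-labelled minus WT) against transcript length (log axis), for the 52 factor genes (coloured by role) and for all features with a length (grey). In each of the 3 length ranges the factors have a lower median than all features, at -0.21, -0.21 and -0.099.

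Genes that act around these factors lay on either side of 0, and limma called 0 in each of the lists that follow. Of 15 measured mRNAs known for a pyrimidine-rich 5′ end, 9 of them among the 52 factors, 13 had estimates below 0 and 9 had both KO-labelled values under both WT values (60%, against 20.0% of all features). Their median was -0.32, and their smallest p were those of Eef1b2, Eif3e and Eef1d, which are factors described above. Of the 9 genes without overlap, only Naca, Gnb2l1 and Npm1 are not among the 52 factors. The exceptions in sign were Eif3f and Tpt1, which encodes a growth-related protein, at 0.14 (SE 0.31).

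Of 13 genes of the mTORC1 pathway and of the S6 and eIF4E kinases, 10 had estimates above 0 and 8 had both KO-labelled libraries above both WT libraries (61.5%, against 21.1%), with a median of 0.32. Larp1, which binds and represses pyrimidine-rich mRNAs, stood at 12.4 and 10.7 CPM in WT, against 19.6 and 19.2 CPM in KO-labelled cells (0.75, SE 0.26). Rptor, the substrate-binding subunit of mTORC1, stood at 14.7 and 13.5 CPM in WT, against 21.4 and 24.9 CPM (0.71, SE 0.25). Both genes had groups well apart, with lowest read counts of 89 for Larp1 and 106 for Rptor. DESeq2 gave no adjusted p for 7 of the 13 genes, Larp1 and Rptor included. The part of transcript length in the estimates of this list was not tested. Tsc2, an inhibitor of mTORC1, stood at 53.7 and 57.2 CPM in WT, against 89.1 and 70.6 CPM (0.52, SE 0.23), on the same side as Rptor. The 3 estimates below 0 were those of Rheb (-0.26, SE 0.23) and of the eIF4E kinase genes Mknk1 (-0.31) and Mknk2 (-0.10). Rheb stood at 80.1 and 86.1 CPM in WT, against 61.8 and 77.5 CPM in KO-labelled cells, without overlap.

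A list of 10 genes held 4 eIF2 alpha kinases, 4 phosphatase subunits, the kinase regulator Impact (0.13, SE 0.23) and the downstream transcription factor Atf4 (0.075, SE 0.33). Of its estimates 8 were above 0, Impact and Atf4 included, with a median of 0.15. All 4 kinase genes, Eif2ak1 to Eif2ak4, had estimates above 0, from 0.11 to 0.52. Ppp1r15b, the constitutive phosphatase subunit, stood at 37.5 and 35.6 CPM in WT, against 46.6 and 52.8 CPM in KO-labelled cells (0.44, SE 0.23), and Ppp1r15a lay at 0.83 (SE 0.48). Ppp1cc, a catalytic subunit, was the lowest, at 33.6 CPM in WT 1, 72.7 CPM in WT 2, 39.5 CPM in KO 1 and 15.5 CPM in KO 2 (-0.997, SE 0.54), with overlap.

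Termination, release and recycling factors had estimates below 0 for 6 of 7 genes, with a median of -0.34. The release factor gene Etf1 stood at 217 and 279.5 CPM in WT, against 179 and 179 CPM in KO-labelled cells (-0.46, SE 0.24). Its partner Gspt1 lay at -0.41 (SE 0.22), and the rescue factor Hbs1l at -0.34 (SE 0.22). Genes of the hypusine and diphthamide modifications, which act on eIF5A and eEF2, had 6 of 7 estimates below 0 and a median of -0.49. The smallest p were those of Dnajc24, a diphthamide cochaperone (-0.51, SE 0.23), Dohh, the last enzyme of hypusine synthesis (-0.55, SE 0.28), and Dph5, a diphthamide methyltransferase (-0.49, SE 0.28).

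Mitochondrial translation factors had estimates below 0 for all 10 genes, with a median of -0.28, and 7 had both KO-labelled values under both WT values (70%, against 20.0%). Tufm, the mitochondrial elongation factor Tu, stood at 50.4 and 47.0 CPM in WT, against 37.2 and 31.1 CPM in KO-labelled cells (-0.51, SE 0.23), its exchange factor Tsfm lay at -0.41 (SE 0.30), and Guf1 at -0.31 (SE 0.23). Of the 5 genes of poly(A)-binding proteins and their partners 4 had estimates below 0 (median -0.10). Paip1, which stimulates initiation, lay at -0.47 (SE 0.23), Pabpc4 at -0.34 (SE 0.25) and Paip2, which inhibits initiation, at 0.11 (SE 0.24).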

How the data were processed

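Strand-specific, ribosome-depleted total RNA was sequenced from 4 libraries in 1 lane, per the labels' protocols. The submitters' processing notes name STAR 2.3.0, DESeq 1.12.1, SAMtools 0.1.19, FastQC 0.10.1 and Picard 1.119. Not given in the sources used here are build, annotation and counting rule. The deposited values are a signal per gene; their even spacing within each library is that of read counts divided by 1 factor per library, a step no source used here describes. Reads were recovered as whole multiples of the smallest spacing between values (100% whole within 0.01).

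Values were scaled by TMM (edgeR 4.0.16) and filtered by filterByExpr (minimum count 10). In R 4.3.3, log2(value + 1) was tested by limma 3.58.1 with its intensity trend, two-sided, with Benjamini-Hochberg adjustment over all features and a threshold of 0.05. Fold changes on the log2(value + 1) scale understate changes of low genes. Because the deposited values are scaled, limma was chosen as the main test. The edgeR quasi-likelihood test and DESeq2 1.42.0 on recovered reads were alternatives. An exact permutation test of 2 against 2 libraries cannot go below p = 0.333. A level of 3 reads corresponds to 0.137 to 0.533 CPM.

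Per role, the 3 genes with the smallest p, the most abundant gene and listed paralogs were named, and up to 3 genes per other list; further genes named were chosen after their values were seen. The members and lists were chosen with earlier results of these data known. Transcript lengths, for 85.6% of features, and 75-base matches on the same strand come from GENCODE M21. Promoters come from RefSeq (GRCm38.p6), for 42 factor genes outside chr18. Entries on chr18 were kept in the comparison sets of genes in the table and of all entries.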

Additional observations from a re-analysis of the deposited data

How the results depend on the processing

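In every alternative run, 0 of the 52 factors were called, including the replicate block, where 0 features were called in all. Numbers 1 and 2 are not said to pair libraries: same-numbered libraries deviated in opposite directions (correlation -0.30), and a crossed pairing, added after seeing the data, also called 0. The count over all features was 0 in the main analysis, 6 as deposited without scaling (0 higher, 6 lower), 13 by DESeq2 and, with 1 library left out, 0 to 178. The lone library of a group is then assumed to vary like the others. It was 178 without KO 2 and 21 without KO 1.

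Without scaling, all features had a median of -1.25 on the log2 scale, and the medians were -1.44 for all factors, -1.43 for initiation and -1.65 for elongation factors. With 1 library left out, these medians ranged from -0.28 to -0.14, from -0.27 to -0.094 and from -0.49 to -0.25. Of 551 estimates for the 29 named factors, 534 kept their sign and 17 changed it. Of these, 4 come from the shift of all features in unscaled values: Eif4enif1 (-0.53), Eif4g3 (-0.63), Eif4g1 (-1.22) and Eif4g2 (-1.02) were 0.73, 0.63, 0.033 and 0.24 relative to it. Eif4ebp1 turned with upper-quartile scaling (0.0094), edgeR (0.18), DESeq2 (0.18), without WT 1 (0.29), without KO 1 (0.85) and without the length and GC trend (0.10), and was lowest without KO 2 (-0.92). Without that trend Eif1 (0.081), Eif4a2 (0.079) and Eif4g1 (-0.21) turned as well, Eif4g1 also without WT 1 (-0.0023), Eif1 without KO 1 (0.12), and Eif5a2 without WT 2 (0.031) and without KO 2 (0.00052), against -0.23 without WT 1. The cause of these other changes was not tested. With 1 library left out, between 10 and 13 of the 29 estimates moved by over 1.5 times, among them Eef1e1 (-0.30 without WT 2), Eef1a1 (-0.19 without KO 1), Eif2b5 (-0.23 without KO 2) and Eif4b (-0.091 without KO 1). Other scalings, filters, pseudocounts, limma-voom and, for the main limma fit only, a threshold of 0.1 changed no call of a factor. The DESeq2 adjusted p of Eif2s3x, 0.0973, lies under 0.1. The Eif2s3x estimate ranged from -1.02 to -0.91 over the scaled alternatives, with 0.0973 the smallest adjusted p of any named factor, by DESeq2.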
